A study of Mus musculus with 10 samples.

Results

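The genes described here encode the proteins that shorten the poly(A) tail of mRNAs, remove their cap and degrade their body. They were chosen as a list of 44 gene symbols, and all 44 were found, by exact symbol, in each of the 10 gene tables, which list 24411 genes. An mRNA in the cytoplasm usually loses its tail first, mainly to the CCR4-NOT complex, and is then decapped by Dcp2 and digested from its 5′ end by Xrn1, or digested from its 3′ end by the exosome. Nonsense-mediated decay removes transcripts with early stop codons, and proteins bound to the 3′ UTR recruit the deadenylases to chosen mRNAs. In the early mouse embryo this machinery clears the RNA inherited from the oocyte, and the m6A reader Ythdf2 is known to call on CCR4-NOT to degrade methylated RNA.

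The samples were pools of 10 mouse morulae, the compacting stage before the blastocyst, made by in vitro fertilization of superovulated oocytes. Zygotes were injected 3 to 6 h after insemination with an antisense oligonucleotide (ASO), a short synthetic strand that pairs with an RNA, and were cultured until 72 h. In the Mettl3-ASO group (5 libraries) the oligonucleotide targeted Mettl3, the gene of the catalytic m6A methyltransferase subunit. In the ASO-Control group (5 libraries) it had no target, so both groups carry the injection and neither carries a genetic change. The labels place replicates 3 to 5 of each group in batch 2 and give replicates 1 and 2 no batch tag. They name the strain, ICR, only for those untagged libraries. No label says that the libraries came from separate fertilizations. The p-values therefore cover only the scatter among these pools, part or all of which may be technical. The comparison asks how transcripts differ in morulae that developed with little Mettl3 RNA.

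Libraries held 9905830 to 13530284 expected counts in the untagged pools and 21412857 to 32327283 in batch 2. The targeted transcript was low in every Mettl3-ASO library: Mettl3 ranged from 6.58 to 12.7 FPKM (fragments scaled to transcript length and library size) in ASO-Control and from 0 to 0.04 in Mettl3-ASO. Among 10 morula and early lineage genes, Pou5f1 had a mean of 75.9 FPKM and Nanog 93.9 in ASO-Control, while Sox2 was below 1. Of the 9 tested, 2 rose and 4 fell, among them Krt8 and Krt18. All 10 genes of a 2-cell-stage list rose, with a summed level of 3.53 to 19.4 FPKM in ASO-Control and 1071 to 3771 in Mettl3-ASO. The rise was not seen in every pool. Zscan4c, Zscan4d and Zscan4f stayed within their control ranges in Mettl3-ASO replicates 3 and 5, at 0.28 to 0.51 FPKM. Of the 10 listed genes, 7 averaged under 1 FPKM in ASO-Control. These were tested only through their level in Mettl3-ASO, so that they had to differ. All 4 tested genes of 12 oocyte-deposited transcripts rose, and the list sum went from 7.98 to 12.6 up to 19.7 to 40.0 FPKM; 1 of the 4, Oosp1, was tested only through Mettl3-ASO. Of 12 cumulus and granulosa genes, 5 were at 0 in all libraries; the list sum was 1.63 to 3.84 against 2.78 to 6.32 FPKM, nearly all of it Amhr2, the single tested gene, which rose (log2 0.80, adjusted p = 0.0374), and Has2, Ptgs2 and Cyp19a1 were among those at 0. The sums of 6 sperm genes overlapped, at 0.51 to 2.22 and 0.25 to 3.04 FPKM. The part of these transcripts in the differences below was not tested. In pooled embryos, fewer cells of a type and less RNA per cell cannot be told apart.

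In control morulae the decay genes spanned over 3 orders of magnitude. FPKM is scaled to transcript length, so levels can be set side by side between genes. Exosc3 and Exosc1, subunits of the cap of the exosome ring, led with 181 ± 18.0 and 169 ± 17.9 FPKM (SD, n = 5). Their ranges overlapped, at 159 to 198 and 150 to 188 FPKM. Next came 3 subunits of CCR4-NOT, Cnot7 at 97.5 ± 11.8, Cnot2 at 76.8 ± 16.3 and Cnot8 at 72.2 ± 9.35 FPKM. Xrn2, Exosc2, Upf3b and Elavl1 followed between 39.4 and 47.1 FPKM. In all, 17 members lay between 10 and 100 FPKM and 22 between 1 and 10. The decapping enzyme Dcp2 stood near the bottom, at 1.80 ± 0.63 FPKM, and its partner Dcp1a at 2.08 ± 0.25. Tob2 at 0.65, Lsm14b at 0.27 and Dcp1b at 0.064 FPKM were below 1. Of the 43 neighbouring pairs in this order, 38 had overlapping ranges, so the order is fixed only in broad steps.

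Of the 44 genes, 42 reached a mean of 1 FPKM over the 10 libraries and were tested with edgeR's quasi-likelihood test; Dcp1b and Lsm14b did not. Genes were called at a Benjamini-Hochberg adjusted p under 0.05 over all tested genes, and each fold change sets Mettl3-ASO over ASO-Control. Of the 42, 11 rose, 11 fell and 20 were not called. The 22 called members make 52.4%, against 49.4% of all 9522 tested genes, and 26.2% in each direction, against 25.4% of all tested genes higher and 24% lower. The share called is thus near that of the transcriptome. Their median log2 fold change was 0.15, against 0.01 over all tested genes, and their median absolute log2 fold change was 0.44, against 0.51. Rises of at least 2-fold were seen in 5 members, Cnot1, Cnot11, Btg1, Tob2 and Dcp2, against 13.4% of all tested genes. Tob2 averaged under 1 FPKM in ASO-Control and was tested only through its level in Mettl3-ASO. The largest fall was the 1.71-fold one of Xrn2, whereas 8.67% of all tested genes fell at least 2-fold. In 8 members every Mettl3-ASO library lay above every ASO-Control library in FPKM, against 15% of tested genes, and in 5 members below, against 10.6%. Without Mettl3-ASO replicate 1, which lay nearest the controls in Btg1, 12 members rose and 9 fell.

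**Figure D1:**
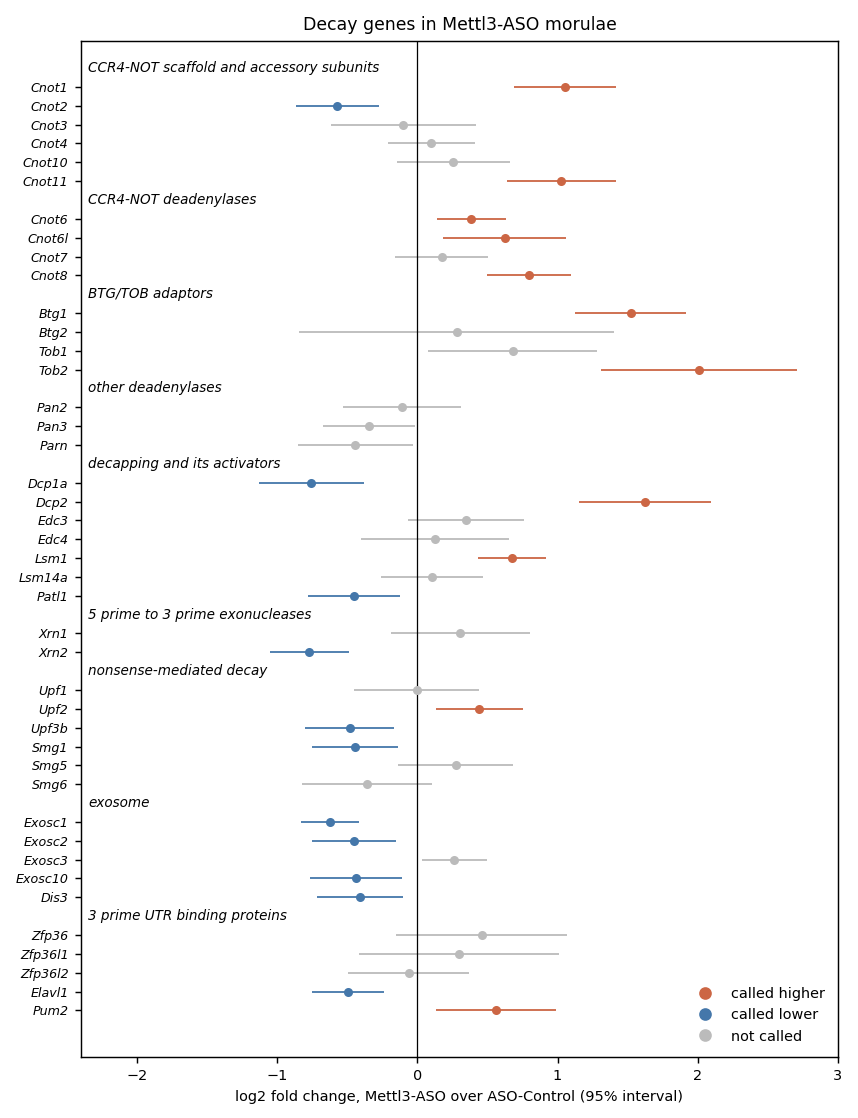
Log2 fold changes (x axis, Mettl3-ASO over ASO-Control, with 95% intervals from edgeR) of the 42 tested decay genes, grouped by role. Points to the right of 0 were higher in Mettl3-ASO; the 11 red genes rose, the 11 blue genes fell and the 20 grey genes were not called, and the points run from -0.77 for Xrn2 to 2.01 for Tob2, a gene tested only through its level in Mettl3-ASO.

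The scaffold of CCR4-NOT changed unevenly, with its central subunit up and 1 of its NOT-module subunits down. Cnot1 (chr8:95718931-95808113), the large protein on which the complex is assembled, stood at 13.6, 10.8, 8.53, 17.7 and 11.6 FPKM in ASO-Control replicates 1 to 5. In Mettl3-ASO it stood at 27.5, 26.2, 23.1, 26.9 and 28.9 FPKM. The lowest Mettl3-ASO library was above the highest control. Gene positions here and below come from RefSeq and refer to GRCm38, the build the submitters' notes call mm10. Cnot1 rose 2.07-fold (log2 1.05 ± 0.17 SE, adjusted p = 0.000271). Near-identical sequence in Gm6158 and in 4930513N10Rik, which partly overlaps Cnot1 on the opposite strand, is shared by 10.05% of the 50-base windows of the transcript. The sources used here do not say whether counting used strand.

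Cnot11 (chr1:39535701-39546881), which docks with Cnot10 at the other end of the scaffold, was at 12.8, 10.2, 7.30, 11.6 and 8.97 FPKM in the controls and at 22.4, 31.7, 16.7, 17.1 and 19.9 FPKM in Mettl3-ASO. The groups did not overlap, and within each group the untagged libraries averaged above those of batch 2. The rise was 2.04-fold (log2 1.03 ± 0.18, adjusted p = 0.000512). Cnot2, a subunit of the NOT module, fell 1.48-fold (log2 -0.57 ± 0.14, adjusted p = 0.00405). It went from 61.2 to 98.0 FPKM in the controls down to 46.9 to 58.6 FPKM, also without overlap. Cnot3, the partner of Cnot2, had a log2 fold change of -0.10 with a 95% interval of -0.62 to 0.42. Counts of Cnot3 are uncertain, since 13.5% of its exon bases lie opposite Leng1. Of its 50-base windows, 32.1% are shared with Gm9207 or Leng1. Cnot4, a ubiquitin ligase, was at 0.10 (interval -0.21 to 0.41) and Cnot10 at 0.26 (-0.15 to 0.66). Of these 6 genes 2 rose and 1 fell, against 25.4% of all tested genes higher and 24% lower.

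The promoter of Cnot11 is shown as that of a member that rose, and those of Btg1 and Tob2 are given below. Whether these genes share a control was not tested. The Cnot11 sequence is 300 bases long, from 250 before to 50 after the annotated start. It lies at chr1:39535451-39535750 on the plus strand (RefSeq, GRCm38.p6). Capitals mark GC boxes, found as GGGCGG on either strand, here 3 of them written as CCGCCC.
Cnot11 promoter: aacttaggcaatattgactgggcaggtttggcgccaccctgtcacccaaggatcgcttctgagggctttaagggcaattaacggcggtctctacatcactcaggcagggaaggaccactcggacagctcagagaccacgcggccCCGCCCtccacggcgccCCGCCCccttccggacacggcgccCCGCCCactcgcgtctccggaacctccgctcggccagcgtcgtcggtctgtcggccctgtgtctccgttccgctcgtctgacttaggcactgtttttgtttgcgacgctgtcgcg

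All 4 catalytic subunits of CCR4-NOT had positive fold changes, and 3 of the 4 rose, against 25.4% of all tested genes; the calls of Cnot6 and Cnot6l were lost in some settings. Cnot8 (chr11:58092794-58118597), a deadenylase of the CAF1 type, was at 65.9, 63.3, 71.5, 87.4 and 73.1 FPKM in the controls. In Mettl3-ASO it was at 98.3, 141, 134, 122 and 143 FPKM. Replicate 1 was the lowest of the Mettl3-ASO group, and still above all controls. Cnot8 rose 1.73-fold (log2 0.79 ± 0.14, adjusted p = 0.000507); 9.85% of its 50-base windows are shared with Gm18860. Its close paralog Cnot7 was at 82.8 to 114 FPKM in the controls and had a log2 fold change of 0.18 (interval -0.16 to 0.51). Counts from 6.51% of the exon bases of Cnot7 could belong to Zdhhc2 on the opposite strand.

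Cnot8 was the more abundant of the paralogs in 3 of 5 treated pools, all of batch 2, and in none of the controls. In the untagged treated pools Cnot7 stayed above Cnot8, at ratios of 1.03 and 1.07. The ratio of Cnot7 to Cnot8 was 1.06 to 1.80 in the controls and 0.762 to 1.07 in Mettl3-ASO, overlapping at the edge. This ratio, like those given further on, was picked with its values in view and has no test. The CCR4-type enzymes Cnot6 and Cnot6l rose 1.3-fold (log2 0.38 ± 0.11, adjusted p = 0.0139) and 1.54-fold (log2 0.62 ± 0.20, adjusted p = 0.0212). The Cnot6 ranges overlapped, at 11.6 to 16.9 and 13.5 to 25.2 FPKM. Cnot6l was low, at 1.52 to 3.60 and 1.70 to 6.39 FPKM, and 2.18 times higher in untagged than in batch 2 libraries of ASO-Control. Its call was lost without ASO-Control replicate 1 (log2 0.60), Mettl3-ASO replicate 2 (0.53) or Mettl3-ASO replicate 5 (0.44), and without the batch term (0.65). The Cnot6 call was lost when genes of all levels were tested (log2 0.33).

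The BTG and TOB adaptors are antiproliferative proteins that bind the CAF1-type deadenylases and stimulate them. Of the 4 members of this group 2 rose, against 25.4% of all tested genes, and 1 of these, Tob2, was tested only through Mettl3-ASO. Btg3 of the wider list, named after its values were seen, averaged 101 FPKM in ASO-Control. It was not called (log2 -0.32, interval -0.68 to 0.04). Btg1 (chr10:96617001-96622813) was at 12.3, 11.0, 11.9, 15 and 11.6 FPKM in the controls and at 20.2, 36.8, 40.6, 46.2 and 40.2 FPKM in Mettl3-ASO. Replicate 1 was the lowest treated library, with no overlap between groups. Btg1 rose 2.87-fold (log2 1.52 ± 0.18, adjusted p = 3.6e-05).

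Tob2 (chr15:81848270-81858326), whose protein also binds the poly(A)-binding protein, was at 0.77, 0.89, 0.34, 0.53 and 0.72 FPKM in the controls. In Mettl3-ASO it was at 2.41, 3.94, 1.23, 2.68 and 3.06 FPKM. Tob2 entered the test only through its level in Mettl3-ASO, so that it had to differ, and its expected counts were 37 to 87 per control library. It rose 4.03-fold (log2 2.01 ± 0.32, adjusted p = 0.000295). Tob1, the paralog, was not called (log2 0.68 ± 0.28, adjusted p = 0.0583). In batch 2 its controls lay at 1.85 to 4.25 FPKM and its treated libraries at 5.79 to 8.74, without overlap, and it was called there (log2 1.12, adjusted p = 0.0223). In the untagged libraries its log2 fold change was 0.03, with controls at 8.54 and 6.54 FPKM and treated libraries at 9.07 and 6.88. The edgeR test of the difference between batches gave no call for Tob1 (log2 1.07, unadjusted p = 0.0537). That does not show equal changes in the batches. Over both batches Tob1 was called with DESeq2, with both limma fits, with upper quartile scaling, with no filter and with a filter of 5 FPKM. It was called as well without ASO-Control replicate 1 (log2 0.82), without Mettl3-ASO replicate 1 (0.79) and without Mettl3-ASO replicate 2 (0.82). Btg2, an early response gene of the same family, varied widely, from 0.58 to 8.90 FPKM among the controls, and its interval ran from -0.84 to 1.41.

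The promoters of the 2 risen adaptors are shown for comparison with that of Cnot11. The promoter of Xrn2, which fell, was searched likewise but is not shown. It holds 0 GC boxes and 1 E-box, the letters CACGTG. That of Exosc1, which also fell, holds 2 GC boxes and is given further on. Any link of these letters to the changes was not tested. Cnot1, Dcp2 and Lsm1, which also rose, had no entry in the promoter source. The Btg1 promoter lies at chr10:96616751-96617050 on the plus strand and that of Tob2 at chr15:81858277-81858576 on the minus strand (RefSeq, GRCm38.p6). Capitals mark the GC box defined above, the CCAAT box, searched as those letters, and the TATA box, searched as TATAAA, all on either strand. Btg1 has 2 GC boxes, 1 CCAAT box and 1 TATA box, and Tob2 has 2 GC boxes. Both were read 5′ to 3′ on the gene's strand.
Btg1 promoter: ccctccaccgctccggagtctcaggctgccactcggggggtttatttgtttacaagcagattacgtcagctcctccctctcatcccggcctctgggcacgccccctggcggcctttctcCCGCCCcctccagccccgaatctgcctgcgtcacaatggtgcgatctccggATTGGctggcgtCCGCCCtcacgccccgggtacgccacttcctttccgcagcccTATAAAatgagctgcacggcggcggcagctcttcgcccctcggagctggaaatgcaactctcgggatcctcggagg
Tob2 promoter: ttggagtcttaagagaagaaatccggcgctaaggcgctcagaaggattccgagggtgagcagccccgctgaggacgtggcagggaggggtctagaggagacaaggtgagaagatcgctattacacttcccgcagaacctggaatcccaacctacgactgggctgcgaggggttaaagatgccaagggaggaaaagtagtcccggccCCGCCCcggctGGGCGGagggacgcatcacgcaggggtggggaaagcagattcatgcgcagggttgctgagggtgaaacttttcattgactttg

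**Figure D2:**
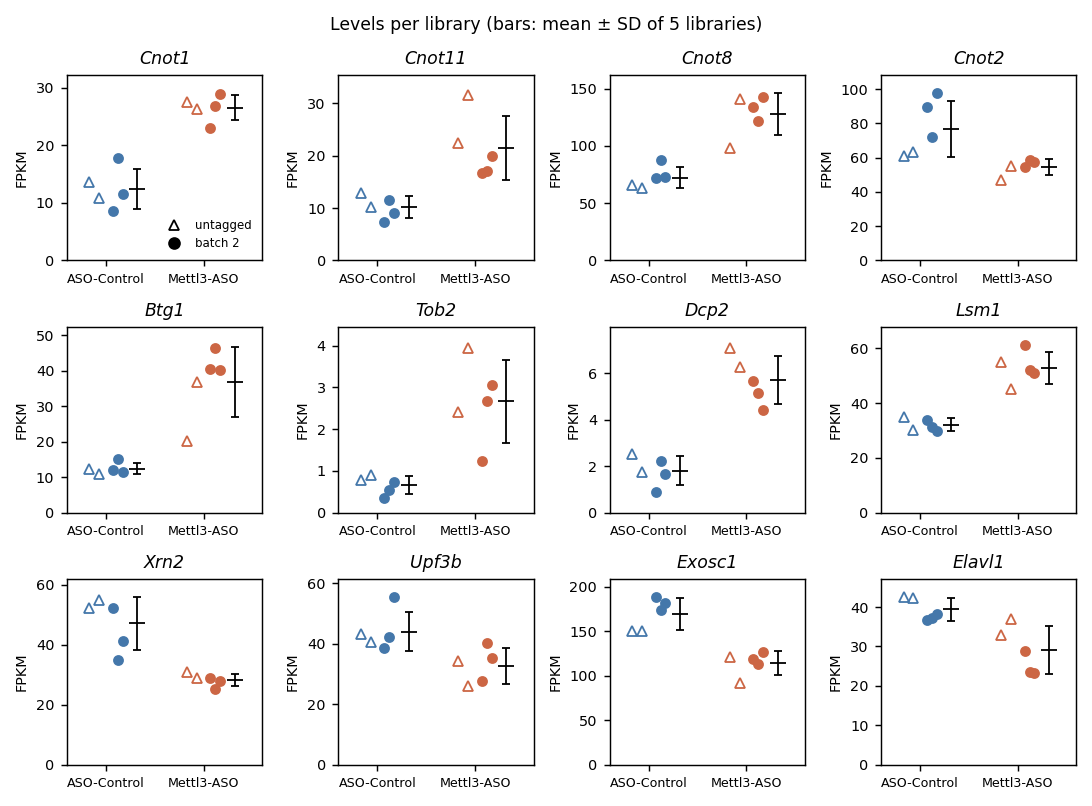
FPKM per library (y axis, linear from 0) of 12 called decay genes in ASO-Control (blue) and Mettl3-ASO (red); triangles are untagged libraries, circles are batch 2, and the bars give the mean ± SD of 5 libraries. In Cnot1, Cnot11, Cnot8, Btg1, Tob2, Dcp2 and Lsm1 all treated libraries lie above all controls, in Cnot2, Xrn2 and Exosc1 all lie below, and in Upf3b and Elavl1 the groups overlap.

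Among the members, the 3 deadenylases outside CCR4-NOT gave no call, against 49.4% of all tested genes called. Genes of this kind in the wider list, described below, were named after their values were seen. Of them, Pde12 was called higher (log2 0.75 ± 0.16, edgeR, adjusted p = 0.00218), while Toe1, Angel2 and Ccrn4l were not called. Pan2, the catalytic subunit of the PAN complex that trims long tails first, had a log2 fold change of -0.11 (interval -0.53 to 0.31). Its adaptor Pan3 was at 6.46 to 11.2 FPKM in the controls with a log2 fold change of -0.34 ± 0.15 (adjusted p = 0.0772, unadjusted p = 0.0419). Parn, the poly(A)-specific ribonuclease that also trims small noncoding RNAs, had one of -0.44 ± 0.19 (adjusted p = 0.0685, unadjusted p = 0.0363). With the replicate number as a block, Pan3 (log2 -0.33, adjusted p = 0.0476) and Parn (log2 -0.43, adjusted p = 0.0385) were called lower. Over all alternatives the lowest adjusted p was 0.0394 for Pan3 and 0.0161 for Parn and the highest 0.339 and 0.332. Both were also called without ASO-Control replicate 4, at log2 -0.42 and -0.57. Parn was called as well without Mettl3-ASO replicate 3, at log2 -0.53, and with DESeq2.

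In the decapping complex the catalytic subunit and its activator went opposite ways. Dcp2, the enzyme that cleaves the cap, was at 2.54, 1.74, 0.87, 2.20 and 1.64 FPKM in the controls. In Mettl3-ASO it was at 7.09, 6.26, 5.66, 5.14 and 4.40 FPKM, all above the highest control. Dcp2 rose 3.08-fold (log2 1.62 ± 0.22, adjusted p = 8.1e-05), on expected counts of 173 to 594 per control library and 523 to 1327 per treated library. Dcp1a, its activating partner, fell 1.69-fold (log2 -0.76 ± 0.17, adjusted p = 0.00322), from 1.76 to 2.4 FPKM down to 1.05 to 1.63. The ratio of Dcp2 to Dcp1a went from 0.442 to 1.09 in the controls to 3.89 to 5.35 in Mettl3-ASO. The other Dcp1 gene, Dcp1b, was at most 0.13 FPKM in the controls and 0.20 in Mettl3-ASO, so that nearly all Dcp1 transcript came from Dcp1a.

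Among the activators of decapping, Lsm1, the subunit that sets the cytoplasmic Lsm ring apart from the nuclear one, rose 1.6-fold (log2 0.68 ± 0.11, adjusted p = 0.000341). Its levels went from 29.8 to 35.1 FPKM in the controls to 45.2 to 61.3 FPKM, with no overlap. Patl1, which links that ring to the decapping enzyme, fell 1.37-fold (log2 -0.45 ± 0.15, adjusted p = 0.0248), with overlapping ranges of 3.71 to 5.80 and 2.63 to 5.24 FPKM. The Patl1 call was lost in 7 of 19 settings over both batches, among them those without ASO-Control replicate 3 (log2 -0.41), ASO-Control replicate 5 (-0.42) and Mettl3-ASO replicate 5 (-0.41). The enhancers of decapping Edc3 (log2 0.35, interval -0.07 to 0.76) and Edc4 (0.13, -0.40 to 0.66) were not called, nor was the P-body repressor Lsm14a (0.10, -0.26 to 0.47). Of the exon bases of Edc3, 22.5% lie opposite Clk3. Lsm14b, its paralog below the filter, was at 0.19 to 0.41 and 0.34 to 1.85 FPKM. Of the 7 tested genes of this group, 2 rose and 2 fell, against 25.4% of all tested genes higher and 24% lower.

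**Figure D3:**
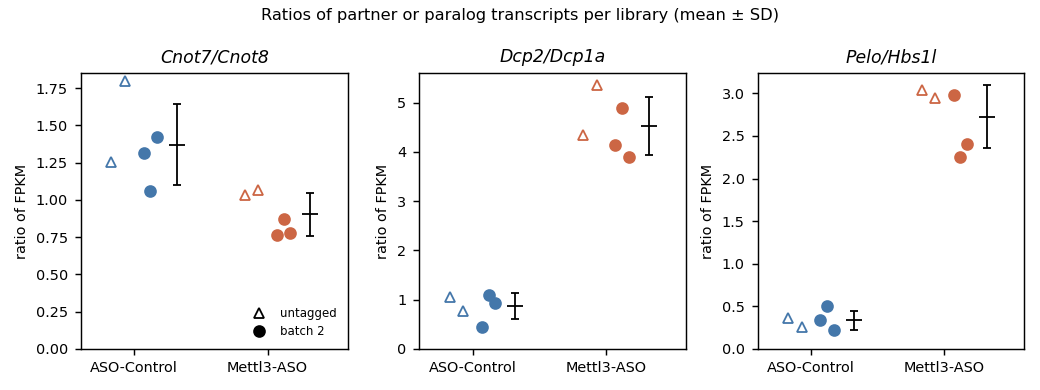
Ratios of FPKM per library (y axis, linear from 0) for the paralogs Cnot7 and Cnot8, the decapping subunits Dcp2 and Dcp1a, and the ribosome rescue partners Pelo and Hbs1l, in ASO-Control (blue) and Mettl3-ASO (red); triangles are untagged libraries, circles are batch 2, bars are the mean ± SD of 5 libraries. The groups lie far apart for Dcp2 to Dcp1a (0.442 to 1.09 against 3.89 to 5.35) and touch for Cnot7 to Cnot8.

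Of the 5′-to-3′ exonucleases, the nuclear one fell. Xrn2 (chr2:147012755-147078000), which degrades RNA behind the polymerase at the end of genes, was at 52.2, 55.0, 52.2, 34.8 and 41.1 FPKM in the controls. In Mettl3-ASO it was at 30.8, 28.8, 28.8, 25.1 and 28.0 FPKM. ASO-Control replicate 4 was the lowest control, and still above every treated library. The fall was 1.71-fold (log2 -0.77 ± 0.13, adjusted p = 0.000416). Xrn1, the cytoplasmic enzyme, was at 2.91 to 5.27 FPKM in the controls and had a log2 fold change of 0.31 (interval -0.19 to 0.80).

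Of 6 nonsense-mediated decay genes 1 rose and 2 fell, against 25.4% of all tested genes higher and 24% lower. Upf1, its helicase, had a log2 fold change of -0.01 with an interval of -0.45 to 0.44. Upf2, which bridges Upf1 and Upf3b, rose 1.36-fold (log2 0.44 ± 0.14, adjusted p = 0.0214), from 7.73 to 9.78 FPKM up to 10.3 to 14.7. Its call was lost when genes of all levels were tested (log2 0.39), without ASO-Control replicate 3 (0.42) and without Mettl3-ASO replicate 5 (0.31).

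Upf3b (chrX:37091678-37110471), the link to the exon junction complex, was at 43.3, 40.4, 38.7, 42.2 and 55.3 FPKM in the controls. In Mettl3-ASO it was at 34.4, 25.9, 27.5, 40.3 and 35.2 FPKM, where replicate 4 lay within the control range. Upf3b fell 1.40-fold (log2 -0.48 ± 0.15, adjusted p = 0.0154). Without ASO-Control replicate 5, its highest library, the log2 fold change was -0.38 and the gene was not called, nor was it without the batch term (-0.48). Smg1, the kinase of Upf1, fell 1.36-fold (log2 -0.44 ± 0.14, adjusted p = 0.0195), from 5.08 to 6.46 FPKM down to 3.25 to 5.05. That call was lost without ASO-Control replicate 2 (log2 -0.42) or 5 (-0.37), and with limma on log2(FPKM + 1) (-0.34). Smg5, an adaptor that recruits decay enzymes, was at 0.27 (interval -0.14 to 0.68) and the endonuclease Smg6 at -0.36 (-0.83 to 0.10). The ratio of Upf2 to Upf3b was 0.140 to 0.242 in the controls and 0.259 to 0.441 in Mettl3-ASO.

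In the exosome 4 of 5 genes fell, against 24% of all tested genes, and the calls of Exosc10 and Dis3 among them were lost in most settings. No test compared the role groups. Exosc1 (chr19:41922978-41933423), a cap subunit with an RNA-binding fold, was at 151, 150, 188, 174 and 182 FPKM in the controls. In Mettl3-ASO it was at 121, 92.0, 119, 114 and 126 FPKM, with every library below the lowest control. Exosc1 fell 1.54-fold (log2 -0.62 ± 0.10, adjusted p = 0.000215). Exosc2, a second cap subunit, fell 1.37-fold (log2 -0.45 ± 0.14, adjusted p = 0.0166), with overlapping ranges of 38.0 to 49.4 and 24.7 to 41.0 FPKM. The third cap subunit, Exosc3, was not called (log2 0.26 ± 0.11, adjusted p = 0.0574), and its ranges of 159 to 198 and 190 to 276 FPKM overlapped. With the replicate number as a block Exosc3 was called higher (log2 0.26, adjusted p = 0.0295). The same held without Mettl3-ASO replicate 5 (log2 0.31), with upper quartile scaling and with a filter of 5 FPKM. Over all alternatives its adjusted p ran from 0.0196 to 0.346. The ratio of Exosc3 to Exosc1 was 0.874 to 1.32 in the controls and 1.51 to 2.28 in Mettl3-ASO.

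The nuclease subunits of the exosome fell too. Exosc10, the nuclear exonuclease, fell 1.35-fold (log2 -0.44 ± 0.15, adjusted p = 0.0293), from 7.22 to 11.5 FPKM to 6.86 to 9. Dis3, the main catalytic subunit, fell 1.33-fold (log2 -0.41 ± 0.14, adjusted p = 0.0288), with a mean of 13.8 ± 1.3 FPKM in the controls and 10.8 ± 2.63 in Mettl3-ASO (SD, n = 5). Each call was lost in 12 of 19 settings over both batches. Leaving out any 1 of ASO-Control replicates 1, 2, 3 and 5 or Mettl3-ASO replicates 1 to 3 ended both, at log2 -0.44 to -0.36 for Exosc10 and -0.41 to -0.34 for Dis3.

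The Exosc1 promoter is shown as that of the most abundant member that fell. It lies at chr19:41933265-41933564 on the minus strand (RefSeq, GRCm38.p6). Capitals mark 2 GC boxes that overlap and 3 CCAAT boxes, of which a pair overlaps, on either strand.
Exosc1 promoter: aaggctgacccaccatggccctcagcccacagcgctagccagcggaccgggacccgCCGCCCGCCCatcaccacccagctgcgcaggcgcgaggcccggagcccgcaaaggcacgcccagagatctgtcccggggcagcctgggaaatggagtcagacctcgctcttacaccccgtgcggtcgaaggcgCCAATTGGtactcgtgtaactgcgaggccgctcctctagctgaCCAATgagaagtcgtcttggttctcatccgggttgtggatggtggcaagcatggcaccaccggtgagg

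Of 5 proteins that bind the 3′ UTR 1 rose and 1 fell, against 25.4% of all tested genes higher and 24% lower. Elavl1 (chr8:4284781-4325140), which shields AU-rich mRNAs from decay, was at 42.7, 42.4, 36.7, 37.2 and 38.2 FPKM in the controls and at 33.0, 37.0, 28.9, 23.5 and 23.2 FPKM in Mettl3-ASO. Only Mettl3-ASO replicate 2 reached the control range, and within each batch the groups were apart. Elavl1 fell 1.41-fold (log2 -0.50 ± 0.12, adjusted p = 0.00406). Pum2, a Pumilio repressor, rose 1.48-fold (log2 0.56 ± 0.20, adjusted p = 0.0315), with ranges of 11.8 to 15.6 and 13.3 to 25.4 FPKM. Its call was lost without any 1 of ASO-Control replicates 1 to 4 and Mettl3-ASO replicates 2 and 5, at log2 0.39 to 0.56. The AU-rich element binders that recruit CCR4-NOT were not called: Zfp36 had a log2 fold change of 0.46 (interval -0.15 to 1.07), Zfp36l1 of 0.30 (-0.42 to 1.01) and Zfp36l2 of -0.06 (-0.49 to 0.37). Of the exon bases of Zfp36l1, 55.9% lie opposite Gm26669, so its counts are uncertain.

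The other genes of the pathway, a list of 100 found in the tables and 84 tested, gave 26 rises and 15 falls, a share of 48.8% called, against 49.4% of all tested genes. Each sublist count below stands against 25.4% of all tested genes higher and 24% lower. Some genes averaged under 1 FPKM in ASO-Control and were tested only through Mettl3-ASO, which favours rises. They were 1 decapping and P-body gene, 1 of the exosome sublist and 4 of the 3′ UTR binding sublist. Their median log2 fold change was 0.14. Among 16 tested genes around CCR4-NOT and the poly(A)-binding proteins, 6 rose and 1 fell. Ythdf2, the m6A reader that recruits CCR4-NOT, rose 2.29-fold (log2 1.19 ± 0.12, adjusted p = 1.2e-05), from 30.2 to 39.1 FPKM up to 78.0 to 102. Paip2b, an inhibitor of the poly(A)-binding protein, rose 3.59-fold, and Paip1, which binds the same protein and promotes translation, fell 1.41-fold.

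Of 17 decapping and P-body genes 7 rose and 4 fell. The P-body helicase Ddx6 rose 2.19-fold (log2 1.13 ± 0.16, adjusted p = 9.5e-05). Nudt16, another decapping enzyme, had a 9.49-fold higher level, but with 0.23 to 0.77 FPKM in the controls it entered the test only through its level in Mettl3-ASO. The ring subunits Lsm4 and Lsm2 fell 1.84-fold and 1.70-fold, from means of 266 and 234 FPKM to 150 and 143. The remaining ring genes were named after their values were seen. Lsm8, the subunit particular to the nuclear ring, rose as Lsm1 did (log2 0.43, adjusted p = 0.00305). Lsm7 fell (log2 -0.51, adjusted p = 0.00871), and Lsm3 (0.03), Lsm5 (-0.23) and Lsm6 (-0.12) were not called. For nonsense-mediated decay, 4 of 12 rose, led by the Smg1 regulator Smg8 (2.95-fold) and the release factor Etf1 (1.61-fold), and Rbm8a of the exon junction complex fell 1.23-fold.

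Of 19 exosome subunits and cofactors 4 rose and 8 fell, against 25.4% and 24% of all tested genes. The fall of the ring subunit Exosc8 was 1.94-fold (log2 -0.96 ± 0.10, adjusted p = 1.1e-05), from a mean of 291 to 156 FPKM. Skiv2l2, the nuclear helicase also called Mtrex, rose 1.68-fold. Pelo and Hbs1l, partners that release stalled ribosomes, went opposite ways, Pelo up 2.96-fold and Hbs1l down 2.81-fold, and their ratio went from 0.219 to 0.5 in the controls to 2.26 to 3.04 in Mettl3-ASO. Among 20 further 3′ UTR binding and silencing genes 5 rose and 1 fell. Of the 20, 4 were tested only through their level in Mettl3-ASO, so the count of rises is not a free test. Ago2, the slicing Argonaute, fell 2.97-fold, from 2.12 to 5.39 FPKM down to 0.51 to 2.03. Zc3h12a, an endonuclease for stem loops, was at 0.52 to 1.16 FPKM in the controls and 1.57 to 4.90 in Mettl3-ASO, and Cpeb3, a cytoplasmic polyadenylation element binder, at 0.25 to 0.83 and 1.25 to 2.72; both entered the test only through Mettl3-ASO.

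Between the batches most members kept their direction. The log2 fold change had 1 sign in untagged and batch 2 libraries for 38 of 42 members, against 85.5% of all tested genes. The same held for all 22 called members, but these were called from the same libraries, which largely fixes their sign. In batch 2 alone, 9 members were higher, against 20.2% of all tested genes, and 5 lower, against 18.9%. In the 4 untagged libraries alone 2 were higher, Cnot1 (log2 1.10, adjusted p = 0.0415) and Dcp2 (1.6, 0.0331), against 3.79% of all tested genes. None was called lower there by edgeR, against 2.47%, while 2 were lower and 8 higher at an unadjusted p under 0.05, as were 1165 and 1398 of all 9522 tested genes. The interaction of group and batch was called for no member and for 0% of all tested genes, by edgeR. No member had an unadjusted interaction p under 0.05, against 1.67% of tested genes. The levels themselves differed by batch: 30 members were higher in untagged than in batch 2 libraries in both groups and 9 lower in both. In ASO-Control the largest such ratios were those of Btg2 (2.57), Zfp36 (2.56), Tob1 (2.41), Cnot6l (2.18) and Zfp36l2 (2.03).

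**Figure D4:**
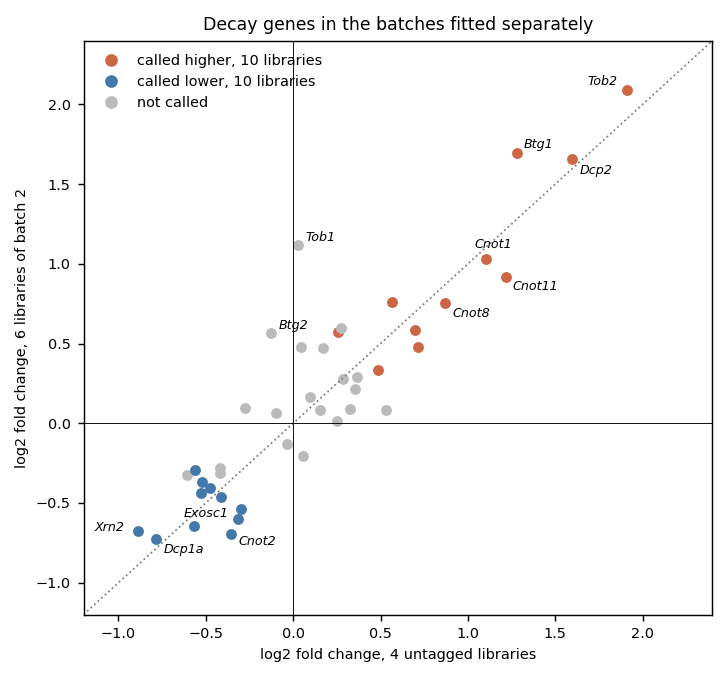
Log2 fold change of each of the 42 tested decay genes in the 4 untagged libraries (x axis) against that in the 6 libraries of batch 2 (y axis), each from its own edgeR fit; colours give the call over all 10 libraries and the dotted line marks equal values. All 22 called genes lie below 0 on both axes or above 0 on both, but they were called from these same libraries. Tob1 stands off the line, at 0.03 in untagged and 1.12 in batch 2 libraries.

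Estimated transcript length, a mean over isoforms weighted by abundance, hardly moved in these genes. It varied enough to be tested in 11 members. By limma none had a shifted effective length, against 3.26% of 2637 genes tested, although 3 members had an unadjusted p under 0.05, as did 422 of all genes. In the plain length column 1 member was called, against 8.27% of genes: Cnot7 went from 2611 ± 2.6 to 2590 ± 7.0 bases (SD, n = 5; limma, adjusted p = 0.0129). Cnot2 was at 2645 ± 33.4 and 2569 ± 43.1 bases (limma, effective length, adjusted p = 0.177). Among the wider pathway genes Celf1, an RNA-binding protein of GU-rich elements, went from 6557 ± 154 to 5501 ± 272 bases (SD, n = 5; limma, effective length, adjusted p = 0.00368); it was singled out with its values in view.

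Methylation of RNA was not measured, but the letters of the consensus in which m6A is most often written, GGACT in DNA letters, can be counted in the transcripts. In 42 members the median was 0.875 GGACT per kilobase of coding sequence and 3′ UTR, against 0.997 in the 8831 tested genes with an annotated transcript. The medians were 0.858 in the 11 members that rose, 0.769 in the 11 that fell and 0.928 in the 20 not called. Within 200 bases of the stop codon, where m6A is known to be dense, 21.4% of members held the letters, against 38.4% of tested genes. The 25 bases around the coding GGACT nearest the stop codon are shown for Cnot11 and Btg1, which rose, and Xrn2, which fell. They lie at chr1:39545127-39545151, chr10:96618379-96618403 and chr2:147040909-147040933, all on the plus strand of GRCm38, with the GGACT in capitals. It ends 125, 250 and 1219 bases before the end of the coding sequence. Tob2, which rose, and Exosc1, which fell, were searched likewise and hold 0 GGACT in their coding sequence.
Cnot11 site: ttaacgtgcaGGACTtgtttataga
Btg1 site: ccagcggattGGACTgagcagtcag
Xrn2 site: ctacgttgaaGGACTgtgctgggtt

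The promoters of these genes are rich in CpG and GC boxes. RefSeq promoters of 39 members, 48 in all, were matched by symbol. Their median number of CpG was 26.5 in 300 bases, against 7 over 32851 promoters. A GC box (GGGCGG, either strand) stood in 66.7% of member promoters and 35.7% of all. A CCAAT box stood in 33.3% against 37.4%, and a TATAAA in 6.25% against 13.6%. The E-box CACGTG stood in 4.17% against 7.15%, and the cAMP response element TGACGTCA in 2.08% against 1.79%. These matches describe letters in the window, and the set of all promoters is not limited to the genes tested here.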

How the data were processed

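RNA from 10 pools of 10 mouse morulae, 5 per group, was sequenced after SMART-Seq v4 PLUS amplification of polyadenylated RNA, per the labels' protocols. Group and replicate were read from each title. The submitters' processing notes name STAR 2.7.10, RSEM 1.3.3 and build mm10. What each tool did, its options, the annotation and the use of strand are not given in the sources used here. Each table deposited by the authors holds expected counts, in which reads matching several genes are shared out by estimate. The deposited TPM values were not used. The authors' FPKM values are scaled to transcript length and library size, and served for levels and the filter. The deposited length and effective length are means over isoforms weighted by abundance. Reads carry no molecular identifiers, and totals ran from 9905830 expected counts in an untagged library to 32327283 in a batch 2 library. Replicates of a group and batch differed beyond sampling noise (chi-square per degree of freedom at least 24.7), so none was taken for a second deposit of another. That does not show separate embryo cultures.

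Rounded expected counts entered edgeR's quasi-likelihood test (edgeR 4.0.16, R 4.3.3) with TMM scaling and a batch and a group term. The 9522 genes whose FPKM averaged 1 or more were tested, with Benjamini-Hochberg adjustment over them. Genes were called at an adjusted p under 0.05. The SE is the absolute log2 fold change over the square root of F. Interaction and single-batch fits used the same test, and lengths used limma 3.58.1 on the log2 scale. Alternatives were DESeq2 1.42.0, limma on log2(FPKM + 1) and log2(FPKM + 0.1), median-ratio and upper quartile scaling, no filter and a filter of 5 FPKM, no batch term, the replicate block, single batches and leaving out each library. For replicates 1 to 5, the deviations of libraries of like number from the means of group and batch had correlations of 0.273, 0.273, 0.174, 0.147 and 0.105. The labels do not state pairs, so the pairing is a hint from the data. On simulated counts with 200 of 9522 genes changed 2-fold, the 10-library test recovered 59% of them, with 6.35% false among those called; at 1.5-fold it recovered 0.5%, with 50% false. For batch 2 alone recovery at 2-fold was 34% and for the untagged libraries 0%. In the data 4704 of the 9522 genes were called, with unadjusted edgeR p up to 0.0247. With only 200 changed genes the adjustment is stricter, so the simulated shares do not carry over to the calls made here. The 50% at 1.5-fold also rests on very few calls.

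The members and all gene lists were chosen with earlier results of these data known. Values in every library are given for called members with at least a 2-fold change and for the called member with the smallest p in each role group. Of the wider list, up to 2 called genes with the smallest p in each direction are named per sublist. Promoters came from RefSeq tables of GRCm38.p6, and gene positions from RefSeq as well. Transcript letters came from a GENCODE annotation of GRCm38, with 1 transcript per gene.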

Additional observations from a re-analysis of the deposited data

Results flagged for a closer look

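Among the 88 sets of 5 libraries (44 genes in 2 groups), 9 held a library set apart from the other 4 by more than 0.71 of the range; chance flags about 1 in 20 such sets. In 4 of the 9 that library was Mettl3-ASO replicate 1. There Cnot3 was at 6.15 FPKM, against 2.00 to 2.86 in the other Mettl3-ASO libraries. Pan2 was at 4.52 FPKM there, against 1.95 to 2.55, and Exosc10 at 9, against 6.86 to 7.33. Lsm14b, below the filter, was at 1.85 FPKM there, against 0.34 to 0.58. In ASO-Control replicate 1, Pan2 was at 3.82 FPKM, against 2.39 to 2.63 in the other controls, and Edc4 at 4.85, against 2.22 to 2.43. In ASO-Control replicate 5, Upf3b was at 55.3 FPKM, against 38.7 to 43.3, and Pum2 at 15.6, against 11.8 to 12.7. In Mettl3-ASO replicate 2, Cnot7 was at 151 FPKM, against 101 to 111.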

How the results depend on the processing

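All settings below draw on the libraries that gave the calls, so a kept sign is no separate check. Of the 22 called members, 13 kept their call in all 19 settings over both batches. None of the 22 changed sign in any of 21 settings. The other 9 (Cnot6, Cnot6l, Dis3, Exosc10, Patl1, Pum2, Smg1, Upf2 and Upf3b) lost it in at least 1. Of the 20 uncalled tested members, 4 (Tob1, Exosc3, Parn and Pan3) were called in at least 1 and 6 changed sign in at least 1. Members higher numbered 9 to 12 and members lower 6 to 13 when 1 library was left out, the 6 without ASO-Control replicate 5; the wider list gave 26 to 29 higher and 11 to 16 lower. In the untagged libraries alone, 2 members were higher and 0 lower, and of the wider list 4 were higher and 3 lower. Members lower numbered 5 in batch 2 alone, and 7 with limma on log2(FPKM + 1), with limma on log2(FPKM + 0.1) and with a filter of 5 FPKM; the filter tests fewer genes, and for limma the cause was not tested. With the replicate block, 12 members were higher and 13 lower; beside Exosc3, Pan3 and Parn it changed no call of a member. Without the batch term 10 were higher and 8 lower. Members with a shifted length numbered 1 with the length column, an alternative chosen after seeing the data. Mettl3 was called lower in each alternative that tested it; its mean falls short of a filter of 5 FPKM. Tested without a filter by edgeR, Lsm14b was at log2 1.24 (adjusted p = 0.0978). Depth limits the low members most: Dcp1b had 0 to 16 expected counts per library.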
